A study of Mus musculus with 24 samples.

Results

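The early growth response (Egr) transcription factors Egr1, Egr2, Egr3 and Egr4 and their corepressors Nab1 and Nab2 were followed in RNA from mouse cochlea, the coiled hearing organ of the inner ear. The 6 genes were taken by symbol from a table of 23420 entries, and all 6 were found. Of these, 5 passed the filter on low counts, as did 16607 entries in all. Egr4 did not pass and is described by its counts.

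Whole cochleae came from CBA/Sca mice aged 12 weeks, in 24 libraries that form 8 groups of 3. Mice had undergone adrenalectomy (ADX), the removal of the adrenal glands that make corticosterone, or a sham operation. They were later exposed for 1 h to noise in the 6 to 12 kHz band at 100 dB SPL, or to a sham exposure, by night or by day. The noise groups were night ADX, night sham-operated, day ADX and day sham-operated, and the sham exposure groups had the same 4 combinations of time and surgery, each called a stratum here. Per the design text exposure began at zeitgeber time (ZT) 15 by night or ZT 3 by day, with collection 2 h after noise, whereas the sample labels list ZT 23 and ZT 11. Whether the libraries of a group came from separate animals is not stated in the labels, so p-values measure the spread between these libraries, which may in part be technical.

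Egr proteins are zinc-finger factors that bind a GC-rich motif, and their genes belong to the immediate early class that cells transcribe within minutes of a stimulus, often through the ERK kinase cascade and serum response factor (SRF) bound at a CArG box. Nab1 and Nab2 do not bind DNA. They dock on an inhibitory domain shared by Egr1, Egr2 and Egr3 but not Egr4, and recruit the NuRD chromatin complex, which curbs most Egr targets and assists some. Nab2 is itself known as an Egr1-inducible gene in other cells, which forms a feedback loop. In peripheral nerve, which includes the auditory nerve, Egr2 is the master regulator of Schwann cell myelination and needs the Nab proteins for it.

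Promoter windows are shown because the members with a window differ in the motifs of this regulatory circuit. RefSeq windows (GRCm38.p6) run from 250 bases before to 50 bases after a transcription start, and those of Egr2, Egr4, Nab1 and Nab2 were used. Windows of Egr1 and Egr3 were not analysed here. Both strands were searched for the EGR consensus GCGNGGGCG, for the CArG box and for TGACG, the half-site of the cAMP response element (CRE). The motifs do not overlap in the windows printed, where capitals mark them. Among 32851 RefSeq windows, 5.55% held the EGR consensus, 1.63% a CArG box and 20.8% a CRE half-site.
Egr2: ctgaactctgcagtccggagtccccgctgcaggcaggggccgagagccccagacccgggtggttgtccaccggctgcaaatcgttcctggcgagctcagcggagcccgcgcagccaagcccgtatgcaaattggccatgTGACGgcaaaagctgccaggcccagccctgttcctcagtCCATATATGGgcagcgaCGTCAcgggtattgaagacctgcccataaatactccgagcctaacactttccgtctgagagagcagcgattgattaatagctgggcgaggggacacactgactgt
Nab1: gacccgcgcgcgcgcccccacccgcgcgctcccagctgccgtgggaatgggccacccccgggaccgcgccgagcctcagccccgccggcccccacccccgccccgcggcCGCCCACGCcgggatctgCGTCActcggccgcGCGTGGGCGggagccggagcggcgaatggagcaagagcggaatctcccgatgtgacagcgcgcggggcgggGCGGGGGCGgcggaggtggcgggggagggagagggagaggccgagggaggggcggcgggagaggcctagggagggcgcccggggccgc
Nab2: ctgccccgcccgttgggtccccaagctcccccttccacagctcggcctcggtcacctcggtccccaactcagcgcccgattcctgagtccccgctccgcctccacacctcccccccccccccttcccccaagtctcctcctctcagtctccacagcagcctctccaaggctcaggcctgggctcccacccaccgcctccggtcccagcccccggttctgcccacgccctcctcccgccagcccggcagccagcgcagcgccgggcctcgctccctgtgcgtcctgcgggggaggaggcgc
The Egr2 window, chr10:67537619-67537918 on the plus strand, held a CArG box from base -72 to -63 before the start and 2 CRE half-sites around it. Egr2 has 5 annotated windows, of which 4 held a CArG box. The most matches, 1 CArG box and 2 CRE half-sites, were held by 3 windows with nearby starts, and the first of these is printed. These 3 windows overlap and hold the same CArG box and half-sites, so they are not separate matches. The Nab1 window, chr1:52500399-52500698 on the minus strand, held 3 matches to the EGR consensus and 1 CRE half-site. None of the 3 motifs was in the Nab2 window, chr10:127666654-127666953 on the minus strand, which says only that these letters are not in these 300 bases. This window lies inside the GENCODE span of Nab2, whose annotated 5' end is upstream at base 127668568 and was not searched. The printed Egr2 window also lies inside the GENCODE span of its gene, whose annotated 5' end is upstream at base 67535475. The Egr2 window around that end, chr10:67535249-67535548, held none of the 3 motifs. For Nab1 the annotated 5' end, base 52500679, is inside the window and upstream of its 3 EGR consensus matches. The single Egr4 window held 2 CRE half-sites.

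The genes lie on separate chromosomes except for 1 pair. In GENCODE vM21 (GRCm38), Egr1 spans chr18:34859823-34864984 on the plus strand, Egr2 chr10:67535475-67542188 on the plus strand and Egr3 chr14:70077203-70082614 on the plus strand. Egr4 spans chr6:85511121-85513589, Nab1 chr1:52457294-52500679 and Nab2 chr10:127660918-127668568, all on the minus strand. Exons of Nab2 share 35.7% of their bases with the opposite-strand transcript Gm16229, 5.13% with Nemp1 and 1.36% with Stat6. The strand setting used for counting is not given in the sources used here, so reads of Nab2 and of those partners cannot be told apart with certainty.

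Library totals ran from 18894996 to 36108962 counts, and the single-library counts ran from 790 to 6763 for Egr1, from 717 to 2323 for Nab2, from 933 to 1805 for Nab1, from 395 to 947 for Egr2 and from 136 to 485 for Egr3. Levels are in CPM, the counts of a gene scaled to a common library size with edgeR's normalization factors. The cochlear origin was visible in the 6 hair cell markers, whose summed level ran from 143 to 240 CPM in noise libraries and from 152 to 237 CPM in sham exposure libraries, with none of the 6 at 0. Pituitary or cerebellar transcripts stood out in 3 libraries. Night noise ADX a held 9850 CPM of 6 pituitary markers, against at most 137 CPM and a median of 6.58 CPM in the other 23 libraries. The library with 137 CPM was of the same group, whose lowest library held 12.8 CPM. Night sham exposure ADX libraries held 6.49 to 7.36 CPM. Night noise sham-operated b and day sham exposure sham-operated b held 244 and 262 CPM of 8 cerebellar markers, against 114 to 178 CPM in the other 22 libraries. Summed levels of 8 skeletal muscle markers had a median of 16.3 CPM in noise and 16.2 CPM in sham exposure libraries. They reached 58.6 CPM in day sham exposure ADX c, 56 CPM in night noise sham-operated b and 56.8 CPM in day sham exposure sham-operated b. Day sham exposure ADX c is not among the 3 libraries with pituitary or cerebellar transcripts. Where leaving out these 3 libraries changed a member's call, the value is given beside it.

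**Figure D1:**
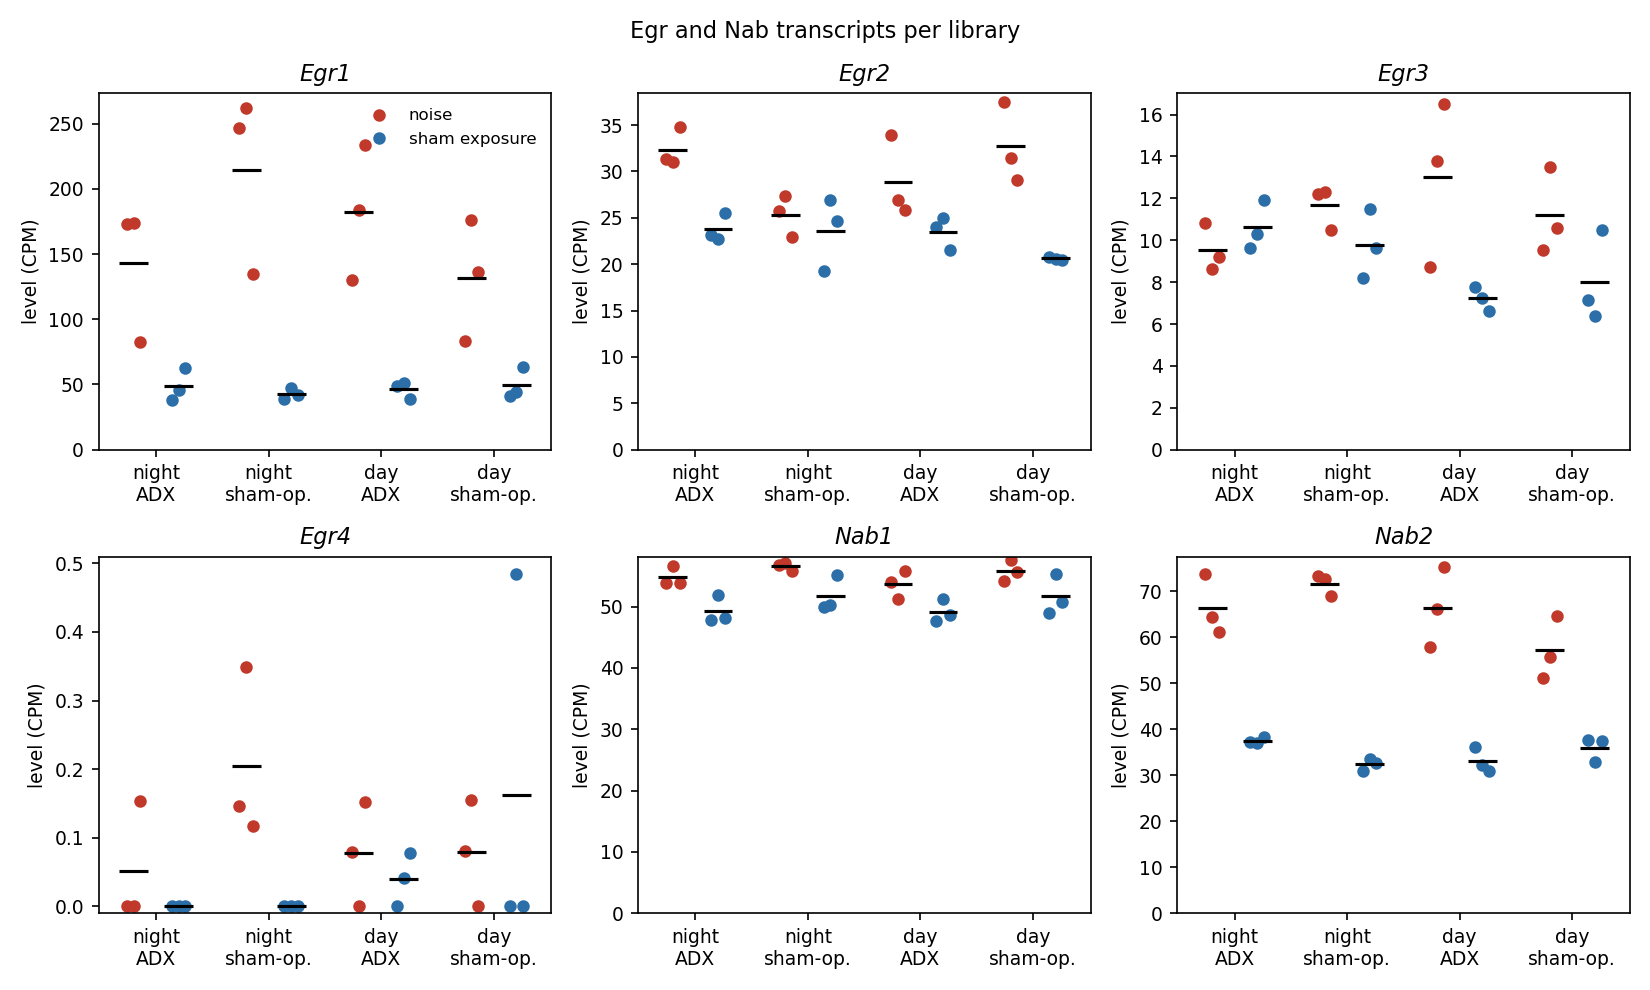
Level in CPM (vertical axis, linear from 0) of each gene in every library, with noise in red and sham exposure in blue for the 4 strata, and bars at the group mean (n = 3). All noise libraries lie above all sham exposure libraries for Egr1 and Nab2, with a wide spread for Egr1 (82.4 to 262 CPM after noise) and a narrow one for Nab2 (51.2 to 75.2 CPM after noise).

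Noise raised the transcripts of all 5 testable members when the 4 strata were averaged, by 3.52-fold for Egr1, 1.88-fold for Nab2, 1.3-fold for Egr2, 1.28-fold for Egr3 and 1.09-fold for Nab1. All 5 passed an adjusted p of 0.05 in edgeR's quasi-likelihood test with Benjamini-Hochberg adjustment over 16607 genes, where 4.81% of all genes were called and 2.40% were called higher. The Egr3 call was close to the threshold (adjusted p = 0.0433) and was lost in 15 of 24 fits with 1 library left out and without the 3 libraries with pituitary or cerebellar transcripts (adjusted p = 0.185), and in night ADX mice Egr3 had a log2 fold change of -0.14. The median log2 fold change of all genes was 0. Egr1 and Nab2 were separated fully, with all 12 noise libraries above all 12 sham exposure libraries, an order found in 54 genes, which is 0.325% of those tested. In bulk tissue, more cells of a type and more RNA per cell cannot be told apart.

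Egr1, the most widely inducible member, answers growth factors, membrane depolarization and mechanical stress in many cells. In night ADX mice it stood at 173, 174 and 82.4 CPM after noise, against 38.2, 45.6 and 62.9 CPM after sham exposure. Night sham-operated mice had 247, 262 and 135 CPM after noise and 38.6, 47.5 and 41.6 CPM after sham exposure. Every noise library exceeded its sham exposure counterparts at night, although 1 noise library in each surgery group was well below the other 2. By day the ADX values were 130, 184 and 234 CPM after noise and 49.0, 51.3 and 39.1 CPM after sham exposure. Day sham-operated mice gave 83.1, 176 and 136 CPM after noise and 41.5, 44.4 and 63.1 CPM after sham exposure. The groups did not overlap by day either. In single strata such a full order with noise above was common, found in 6.83% of genes in night ADX, 6.91% in night sham-operated, 12.2% in day ADX and 8.19% in day sham-operated mice.

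The log2 fold change of Egr1 with noise was 1.55 (SE 0.32, adjusted p = 0.0325) in night ADX mice and 2.34 (SE 0.33, adjusted p = 0.000465) in night sham-operated mice. It was 1.98 (SE 0.33, adjusted p = 0.00217) in day ADX mice. In day sham-operated mice the value of 1.40 (SE 0.33, 95% interval 0.72 to 2.08) missed the threshold at an adjusted p of 0.0933, and DESeq2 gave 0.00456 there. Averaged over strata, Egr1 had 168 ± 58.8 CPM after noise and 46.9 ± 8.60 CPM after sham exposure (SD, n = 12 each), a log2 fold change of 1.82 (SE 0.16, adjusted p = 3.43e-07). The night ADX call was lost in several fits. Without the library rich in pituitary transcripts, night noise ADX a, its log2 fold change was 1.39 with an adjusted p of 0.142, and the adjusted p was 0.155 without all 3 libraries with pituitary or cerebellar transcripts. It was also lost without night noise ADX b or any 1 of the 3 night sham exposure ADX libraries (adjusted p of 0.0676 to 0.191). Among day sham-operated mice the call was gained without day noise sham-operated a, with a log2 fold change of 1.65 and an adjusted p of 0.0308.

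Nab2, the corepressor known for its inducibility, was the member called in the most strata. Night ADX mice had 73.7, 64.4 and 61.1 CPM after noise, against 37.3, 36.9 and 38.3 CPM after sham exposure. Night sham-operated mice had 73.3, 72.6 and 68.9 CPM after noise, against 30.9, 33.6 and 32.7 CPM after sham exposure. The lowest night noise library thus stood far above the highest night sham exposure library. Day ADX mice showed 57.9, 66.1 and 75.2 CPM after noise and 36.2, 32.1 and 30.8 CPM after sham exposure. In day sham-operated mice the levels were 51.2, 55.7 and 64.6 CPM after noise and 37.7, 32.9 and 37.4 CPM after sham exposure. This stratum held the 2 lowest noise values, yet none reached down to a sham exposure value.

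Nab2 was called in every stratum. The log2 fold change was 0.83 (SE 0.09, adjusted p = 3.92e-05) in night ADX mice and 1.14 (SE 0.10, adjusted p = 2.97e-07) in night sham-operated mice. By day it was 1.01 (SE 0.10, adjusted p = 1.74e-06) with ADX and 0.67 (SE 0.10, adjusted p = 0.000936) with the sham operation. Averaged over strata, Nab2 had 65.4 ± 7.77 CPM after noise and 34.7 ± 2.83 CPM after sham exposure (SD, n = 12 each). That gave a log2 fold change of 0.91 (SE 0.05, adjusted p = 2.04e-11), which ranked 5 by p-value among all genes tested, against rank 51 for Egr1 with its larger change. Only 25 genes (0.151% of those tested) were called higher with noise in each of the 4 strata, and Nab2 was the member among them. Its spread within noise groups was 3.28% to 13.0% of the mean (coefficient of variation), compared with 28.5% to 36.7% for Egr1.

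**Figure D2:**
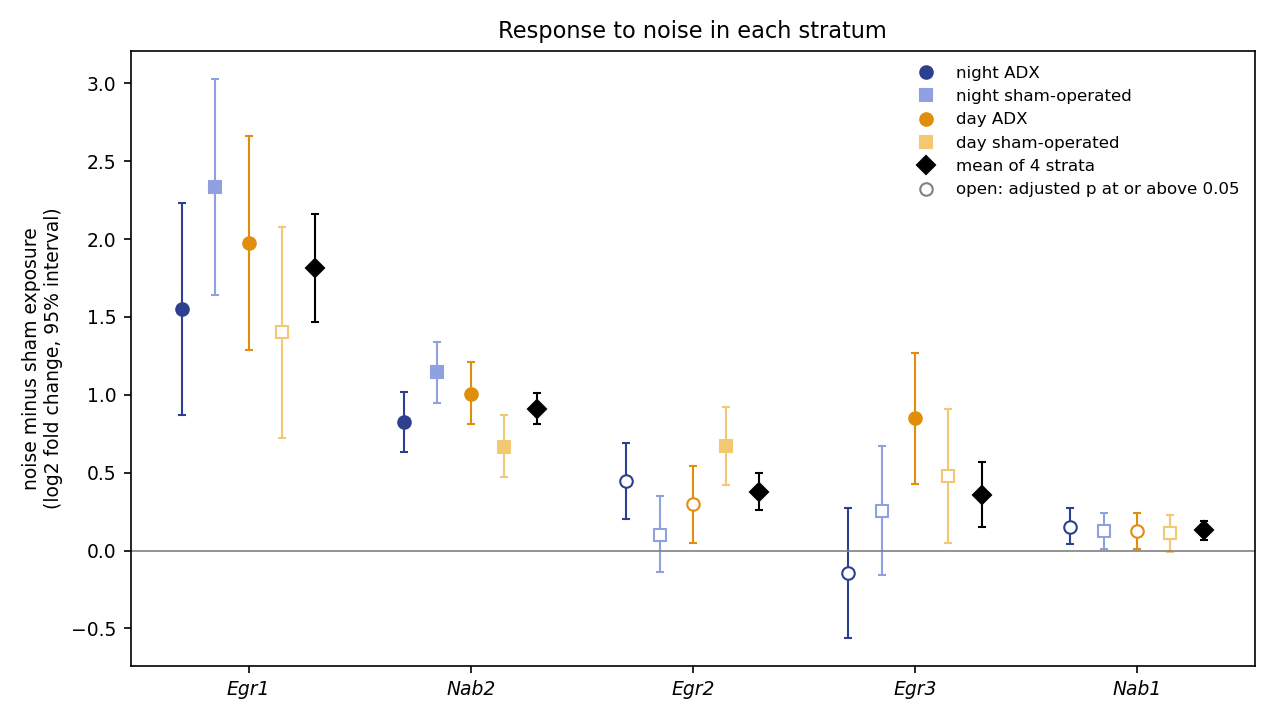
Log2 fold change, noise minus sham exposure, of the 5 tested genes (vertical axis) in each stratum and averaged over the 4 strata, with 95% intervals; filled symbols have an adjusted p under 0.05. Nab2 is filled in all 4 strata, from 0.67 to 1.14, Egr1 in 3, and Nab1 in none of the 4.

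Egr2, the myelination factor also known as Krox20, rose less, and passed the test in 1 stratum. By night ADX mice had 31.3, 31.0 and 34.8 CPM after noise and 23.1, 22.7 and 25.5 CPM after sham exposure. Night sham-operated mice had 25.7, 27.4 and 22.9 CPM after noise, against 19.3, 26.9 and 24.7 CPM after sham exposure. The groups were apart with ADX, an order found in 6.83% of all genes, and overlapped with the sham operation. Day ADX mice had 33.9, 26.9 and 25.8 CPM after noise and 24, 25 and 21.5 CPM after sham exposure. Day sham-operated mice had 37.5, 31.5 and 29.1 CPM after noise and a tight 20.8, 20.6 and 20.5 CPM after sham exposure. Day sham-operated mice were the stratum called, with a log2 fold change of 0.67 (SE 0.12, adjusted p = 0.0103).

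The other log2 fold changes of Egr2 were 0.45 (adjusted p = 0.112) in night ADX, 0.10 (adjusted p = 0.915) in night sham-operated and 0.30 (adjusted p = 0.137) in day ADX mice. Averaged over strata, Egr2 had 29.8 ± 4.30 CPM after noise and 22.9 ± 2.37 CPM after sham exposure (SD, n = 12 each), a log2 fold change of 0.38 (SE 0.06, adjusted p = 0.000286), called with each library left out in turn. The call in day sham-operated mice was lost without day sham exposure sham-operated b (adjusted p = 0.0512), a library rich in cerebellar transcripts, without day sham exposure sham-operated c (0.0642) or without day noise sham-operated a (0.0586). Without all 3 libraries with pituitary or cerebellar transcripts its adjusted p was 0.0783. The log2 fold change remained between 0.56 and 0.75 in these and the other leave-one-out fits of that stratum.

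Egr3, which in other tissues acts in muscle spindle formation and in T cell tolerance, was the least abundant member of the 5. Night ADX mice had 10.8, 8.61 and 9.22 CPM after noise and 9.64, 10.3 and 11.9 CPM after sham exposure. In night sham-operated mice it was 12.2, 12.3 and 10.5 CPM after noise and 8.20, 11.5 and 9.63 CPM after sham exposure. The night groups overlapped with either surgery. Day ADX mice had 8.73, 13.8 and 16.5 CPM after noise and 7.79, 7.26 and 6.64 CPM after sham exposure. Day sham-operated mice had 9.53, 13.5 and 10.6 CPM after noise and 7.15, 6.39 and 10.5 CPM after sham exposure. Only the day ADX groups did not overlap, an order found in 12.2% of all genes.

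Egr3 had a log2 fold change of 0.85 (SE 0.20, adjusted p = 0.0229) in day ADX mice, the stratum called. The other 3 strata gave -0.14 in night ADX, 0.25 in night sham-operated and 0.48 in day sham-operated mice, with adjusted p of 0.517 or above. The average over strata was 0.36 (SE 0.10, adjusted p = 0.0433), from 11.4 ± 2.38 CPM after noise and 8.91 ± 1.92 CPM after sham exposure (SD, n = 12 each). Both calls lay close to the threshold. In the 15 leave-one-out fits that lost the averaged call the log2 fold change was 0.31 to 0.37 with an adjusted p of up to 0.0871, and without the 3 libraries it was 0.29. The day ADX call was lost without any 1 of the 3 day sham exposure ADX libraries, without day noise ADX b or without day noise ADX c. The log2 fold change was 0.65 without day noise ADX c (adjusted p = 0.143) and 0.79 to 0.91 in the other 4 fits (adjusted p of 0.0627 to 0.0956). In day ADX mice the 7 macrophage markers also summed higher, at 489 to 628 CPM after noise and 425 to 449 CPM after sham exposure, and the 6 supporting cell markers lower, at 877 to 1150 CPM after noise and 1290 to 1400 CPM after sham exposure. The 7 neutrophil and myeloid marrow markers summed to 6570 to 12200 CPM after noise and 5860 to 8020 CPM after sham exposure. The 8 skeletal muscle markers summed to 13.2 to 17.7 CPM after noise and 13.2 to 58.6 CPM after sham exposure. The part of these cells in the Egr3 values was not tested.

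Nab1, the constitutive corepressor of the pair, barely moved and varied least. Its noise libraries had a lowest, median and highest level of 51.3, 55.7 and 57.6 CPM, and its sham exposure libraries 47.7, 50.1 and 55.3 CPM. The ranges overlapped, although in 3 strata all 3 noise libraries were above the 3 sham exposure libraries. These were night ADX, night sham-operated and day ADX, where 6.83%, 6.91% and 12.2% of all genes had that order. In day ADX mice the gap was narrow, from 51.2 CPM at most after sham exposure to 51.3 CPM at least after noise. Log2 fold changes per stratum ran from 0.11 to 0.15, with no call. Averaged, Nab1 had 55.2 ± 1.82 CPM after noise and 50.5 ± 2.61 CPM after sham exposure (SD, n = 12 each), a log2 fold change of 0.13 (SE 0.03, adjusted p = 0.00716). Its coefficient of variation within noise groups was 1.22% to 4.15%.

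Egr4, a member known from male germ cells and neurons, was near the limit of detection. Noise libraries held 0, 0 and 4 counts in night ADX, 4, 8 and 3 in night sham-operated, 2, 0 and 4 in day ADX and 2, 3 and 0 in day sham-operated mice. Sham exposure libraries held 0 counts in all 6 night libraries, 0, 1 and 2 in day ADX and 0, 11 and 0 in day sham-operated mice. A count of 0 over the 6 night libraries allows up to 0.0184 CPM, by 3 counts of their total, and this limit covers counting error only. In all, 30 counts in 8 of 12 noise libraries stood against 14 counts in 3 of 12 sham exposure libraries. An exact permutation test of the CPM, two-sided and with labels exchanged within strata, gave p = 0.334 for the difference of 0.0525 CPM. The largest counts, 8 and 11, came from the 2 libraries with cerebellar transcripts. Without these, an alternative added after the values were seen, 22 counts in 7 of 11 noise libraries stood against 3 counts in 2 of 11 sham exposure libraries, and the exact permutation p was 0.006.

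By stratum, the members called were Egr1 and Nab2 in night ADX, Egr1 and Nab2 in night sham-operated, Egr1, Egr3 and Nab2 in day ADX, and Egr2 and Nab2 in day sham-operated mice. All were higher with noise, in strata where 0.434%, 0.668%, 2.01% and 0.211% of all genes were called higher and 0.500%, 0.717%, 4.02% and 0.247% in either direction. Day sham-operated mice were the stratum with the fewest calls in the genome and the stratum in which Egr2, not Egr1, was called. An effect called in 1 stratum and not in another is not thereby shown to differ, and the tests of such differences follow.

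Neither time of day nor adrenalectomy moved any member past the threshold, and no member's noise response was shown to depend on either. In edgeR's quasi-likelihood test none of the 80 member tests over 5 night minus day, 5 ADX minus sham-operated and 6 interaction comparisons had an adjusted p under 0.05, while 16 had an unadjusted p under 0.05. DESeq2 and limma voom each made 1 call. Over all genes, night minus day called 0.620% in noise ADX, 1.12% in noise sham-operated, 0.0181% in sham exposure ADX and 0.265% in sham exposure sham-operated libraries, and 6.01% in the average. ADX minus sham-operated called 1.58% in night sham exposure libraries, 0.0422% in day sham exposure libraries, 0 in both noise strata and 3.20% in the average. The interactions called 0.00602% of genes for noise by time in ADX mice and in the average, and 0 elsewhere.

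The call by the other tools was Nab2, night minus day, in noise-exposed sham-operated mice. Nab2 averaged 71.6 ± 2.35 CPM by night and 57.2 ± 6.84 CPM by day there (SD, n = 3 each). Its log2 difference was 0.33 (SE 0.09, 95% interval 0.13 to 0.52), with an adjusted p of 0.0901 in edgeR, 0.0405 in DESeq2 and 0.0298 in limma voom, in a comparison that called 1.12% of all genes. Without day noise sham-operated c the edgeR value was 0.42, with an adjusted p of 0.0447. In noise-exposed ADX mice Nab2 was 66.4 ± 6.52 CPM by night and 66.4 ± 8.66 CPM by day (SD, n = 3 each), a log2 difference of 0.00 (95% interval -0.19 to 0.19). Egr1 also stood higher by night than by day in noise-exposed sham-operated mice, at 215 ± 69.5 and 132 ± 46.7 CPM, but the log2 difference of 0.71 (95% interval 0.05 to 1.36) had an adjusted p of 0.289. Egr2 ran the other way, at 25.3 ± 2.30 CPM by night and 32.7 ± 4.30 CPM by day, a log2 difference of -0.37 (95% interval -0.62 to -0.13, adjusted p = 0.127).

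Differences between noise responses were estimated with wide intervals, and none was called with all libraries. The first 3 given here had the smallest unadjusted p of the 30 interaction tests of members. Their 95% intervals do not allow for that choice. The estimated noise response of Nab2 in sham-operated mice was larger by night than by day by 0.48 on the log2 scale (SE 0.13, 95% interval 0.20 to 0.75, adjusted p = 0.348). That of Egr2 in sham-operated mice was smaller by night, with a difference of -0.57 (95% interval -0.92 to -0.22, adjusted p = 0.382). In ADX mice the estimated Egr3 response was smaller by night, with a difference of -0.99 (95% interval -1.59 to -0.40, adjusted p = 0.320). Its counterpart without day noise ADX a was -1.22, with an adjusted p of 0.0467, and in that fit the night minus day difference of Egr3 in noise-exposed ADX mice was -0.67, with an adjusted p of 0.0317. Among the leave-one-out fits, Egr3 passed these tests only without that library. Such a difference also takes in the sham exposure libraries. With all libraries, Egr3 in ADX mice differed night minus day by 0.55 after sham exposure (95% interval 0.12 to 0.98, adjusted p = 0.725). After noise it differed by -0.44 (95% interval -0.86 to -0.03, adjusted p = 0.243). In sham-operated mice after sham exposure the night minus day difference was -0.15 for Nab2 and 0.195 for Egr2.

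For adrenalectomy, the Nab2 response with ADX minus that with the sham operation was -0.32 by night (95% interval -0.59 to -0.04, adjusted p = 0.760) and 0.34 by day (95% interval 0.06 to 0.62, adjusted p = 0.218). The same difference for Egr1 was -0.79 by night (95% interval -1.73 to 0.16) and 0.57 by day (95% interval -0.37 to 1.52), both without a call. For both genes the estimate was negative by night and positive by day, and averaged over time it was 0.01 for Nab2 (95% interval -0.18 to 0.21) and -0.11 for Egr1 (95% interval -0.77 to 0.56). No member was called for surgery among sham exposure libraries. The largest log2 difference there, ADX minus sham-operated, was 0.21 for Nab2 by night, at 37.5 ± 0.736 CPM with ADX and 32.4 ± 1.37 CPM with the sham operation (SD, n = 3 each, adjusted p = 0.297).

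Per kilobase of exon the order of levels differed between exposures. After noise Egr1 led at 37.4 ± 13.1 CPM per kb, followed by Nab2 at 22.2 ± 2.65, Nab1 at 13.5 ± 0.448, Egr2 at 8.77 ± 1.26, Egr3 at 2.58 ± 0.542 and Egr4 at 0.0478 ± 0.0472 CPM per kb (SD, n = 12 each). Egr1 exceeded Nab2 in 11 of 12 noise libraries, with overlapping ranges, and all lower neighbours were fully apart. After sham exposure Nab1 stood at 12.3 ± 0.652, Nab2 at 11.8 ± 0.953 and Egr1 at 10.5 ± 1.92 CPM per kb (SD, n = 12 each). These 3 were not separated by their spread, since Nab1 exceeded Nab2 in 7 of 12 libraries and Nab2 exceeded Egr1 in 9 of 12. Below them came Egr2 at 6.73 ± 0.700, Egr3 at 2.02 ± 0.435 and Egr4 at 0.0234 ± 0.0648 CPM per kb.

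The balance within the family was compared through the log2 ratio of a pair of genes in each library, in 10 ratios whose tests were added after the values were seen. An exact two-sided permutation test exchanged exposure labels within strata, with 160000 arrangements and a smallest possible p of 1.25e-05, and p-values were adjusted over the 10 ratios. Noise shifted the balance of the corepressors toward Nab2, with the log2 ratio of Nab2 to Nab1 higher by 0.78 (exact permutation p = 1.25e-05, the smallest possible, adjusted 4.17e-05). That ratio did not overlap between the 12 noise and the 12 sham exposure libraries. Egr1 gained on its inducible corepressor as well. The log2 ratio of Egr1 to Nab2 was higher by 0.86 (exact permutation p = 6.25e-05, adjusted 0.00015), from 0.68 in night ADX to 1.14 in night sham-operated mice.

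Egr1 also gained on Egr2, by 1.40 (exact permutation p = 7.5e-05), on Egr3, by 1.42 (exact permutation p = 1.25e-05) and on Nab1, by 1.64 (exact permutation p = 1.25e-05). In contrast, Egr2 and Egr3 lost ground to Nab2. The log2 ratio to Nab2 changed by -0.53 for Egr2 (exact permutation p = 0.000812, adjusted 0.00116) and by -0.56 for Egr3 (exact permutation p = 0.0005, adjusted 0.000833). By stratum the change for Egr2 was -0.38 in night ADX, -1.03 in night sham-operated, -0.71 in day ADX and -0.01 in day sham-operated mice. Egr2 gained 0.25 on Nab1 on average (exact permutation p = 0.00516, adjusted 0.00645), with changes of 0.29 in night ADX, -0.02 in night sham-operated, 0.16 in day ADX and 0.54 in day sham-operated mice. No shift past the threshold was found for Egr3 against Nab1 (0.22, exact permutation p = 0.112) or for Egr2 against Egr3 (0.02, exact permutation p = 0.873). The strata differed in sign for Egr2 against Egr3, with 0.59 in night ADX, -0.15 in night sham-operated, -0.51 in day ADX and 0.16 in day sham-operated mice, and for Egr3 against Nab1, with -0.30, 0.13, 0.67 and 0.39 in the same order.

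**Figure D3:**
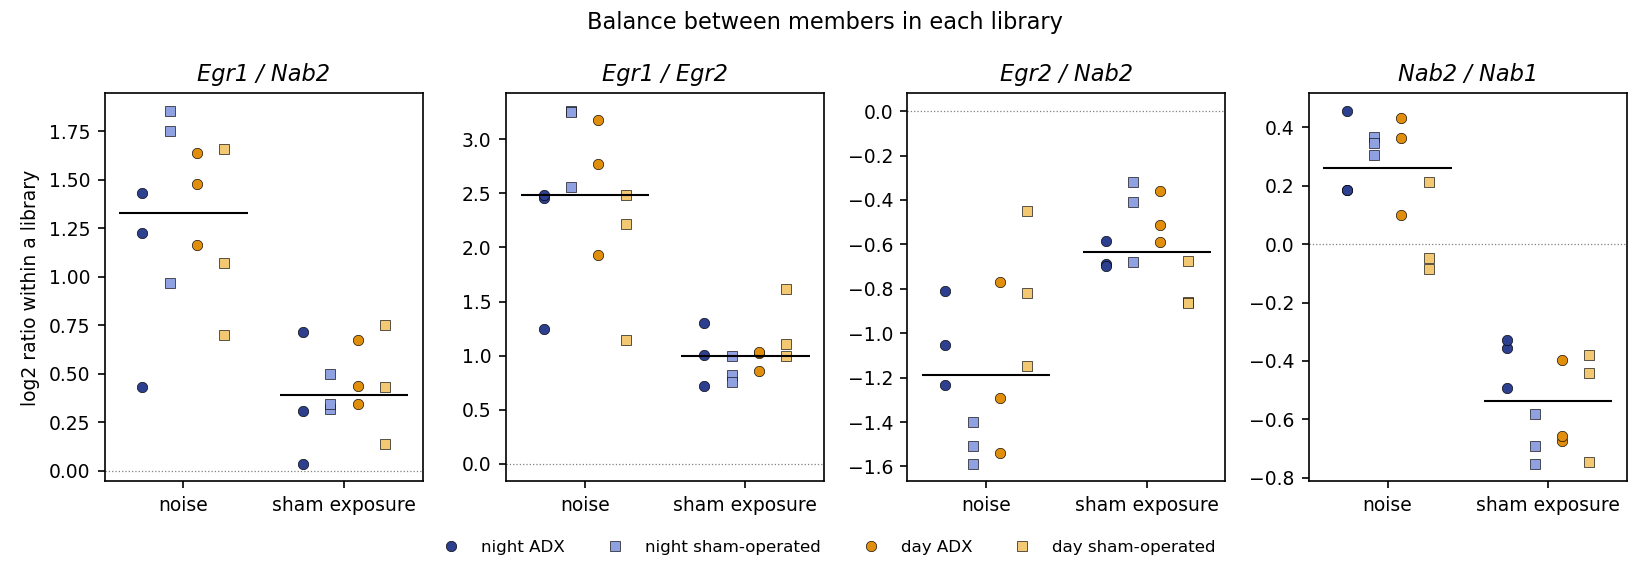
Log2 ratio of the CPM of a pair of genes within each library, not scaled for exon length (vertical axis), for noise and sham exposure, with symbols by stratum and a bar at the median of 12 libraries. Nab2 to Nab1 is higher in every noise library than in any sham exposure library, whereas Egr2 to Nab2 is lower after noise, with an average change of -0.53.

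Noise libraries were not alike in their response, so relations between the members were measured within them. Over 20 relations (10 pairs within noise and within sham exposure libraries), Pearson's r and Spearman's rho of log2 CPM were tested with 100000 permutations and adjusted together. In the 12 noise libraries Egr1 and Nab2 were positively related (r = 0.723, permutation p = 0.00826, adjusted 0.0826; rho = 0.615, p = 0.0375, adjusted 0.187). With the 2 libraries farthest from the Egr1 median left out r was 0.588, and for deviations from the group means it was 0.681. Egr2 and Nab2 were inversely related (r = -0.754, permutation p = 0.00488, adjusted 0.0826; rho = -0.748, p = 0.00686, adjusted 0.0971), with r = -0.721 without the 2 farthest libraries and -0.731 for deviations from the group means. None of the 20 relations had an adjusted p under 0.05.

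Egr1 and Egr3 gave r = 0.664 (permutation p = 0.0186, adjusted 0.108) and rho = 0.727 (permutation p = 0.00971, adjusted 0.0971), and r = 0.623 without the 2 farthest libraries. Egr1 and Egr2 gave r = -0.654 (permutation p = 0.0215, adjusted 0.108) and rho = -0.636 (permutation p = 0.0304, adjusted 0.187), but this relation rested on the 2 farthest libraries, without which r was -0.304. In the 12 sham exposure libraries r was 0.471 for Egr1 and Nab2 (permutation p = 0.127, rho = 0.364, p = 0.247) and 0.135 for Egr2 and Nab2 (permutation p = 0.668, rho = 0.112, p = 0.733). Whether these relations differ between noise and sham exposure was not tested.

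**Figure D4:**
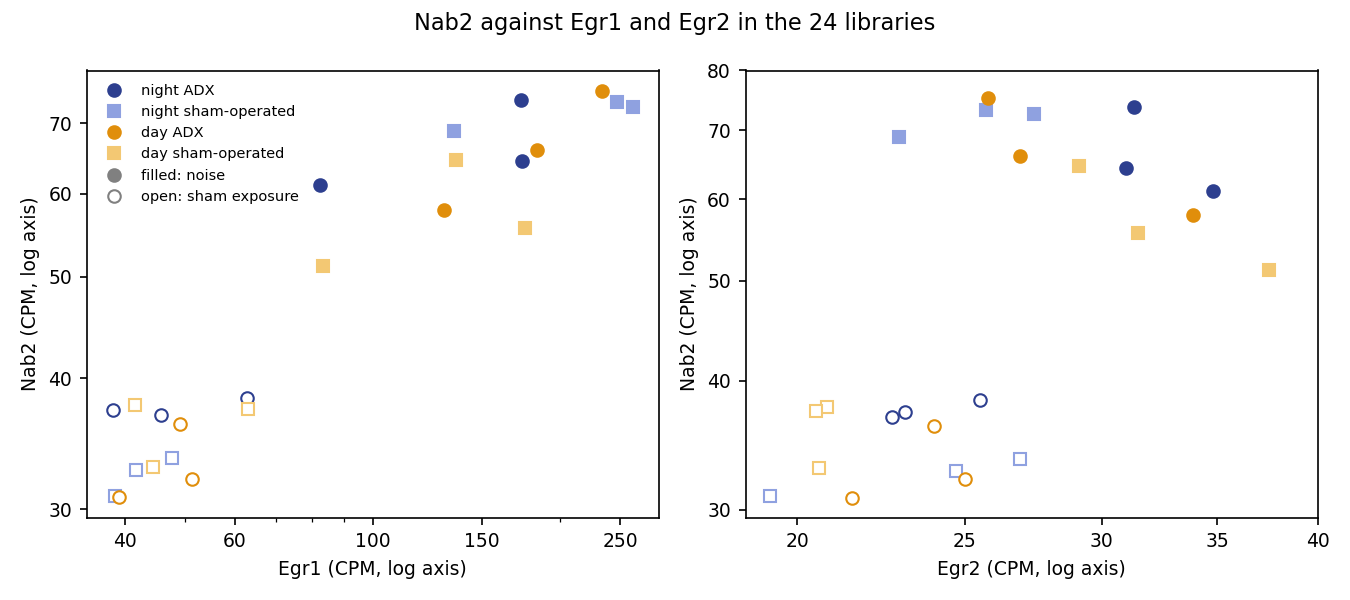
Nab2 against Egr1 (left) and against Egr2 (right), both in CPM on log axes, in all 24 libraries, filled for noise and open for sham exposure, with symbols by stratum. Among the filled points Nab2 is higher where Egr1 is higher (r = 0.723) and lower where Egr2 is higher (r = -0.754), neither past the adjusted threshold.

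Genes with the most similar pattern were ranked by Pearson's r of log2 CPM over the 24 libraries, among 15152 other genes whose mean log2 CPM was 0 or above. The 24 libraries share the exposure contrast, so these values are a description and carry no test. Nearest to Egr1 were Fosb (r = 0.974), Fos (0.971), Junb (0.965), Atf3 (0.964) and Socs3 (0.964), of which the first 4 encode AP-1 and related immediate early factors and Socs3 an inhibitor of cytokine signalling. Nearest to Nab2 were the stress cytokine gene Gdf15 (r = 0.977), Gem (0.969), the ERK phosphatase gene Dusp4 (0.962), Pvr (0.957) and the TWEAK receptor gene Tnfrsf12a (0.955). No gene was among the 5 nearest of both, which with so short a cut does not show that their neighbours differ. For deviations from the group means, r was 0.714 to 0.846 for the 5 genes of Egr1 and 0.45 to 0.646 for those of Nab2.

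Likeness was lower for the other members. Egr2 had Akap2 (r = 0.803), Usp53 (0.778), Lmcd1 (0.766), Rims4 (0.747) and Medag (0.733). Egr3 had Dmp1 (r = 0.842), Itga5 (0.807), Nfatc2 (0.786), Mmp13 (0.747) and Gusb (0.732), and Dmp1 and Mmp13 are genes of mineralized bone and its remodelling. For Nab1 the nearest were 2810403A07Rik (r = 0.833), Herc4 (0.826), the EGF receptor inhibitor gene Errfi1 (0.820), Klf6 (0.817) and the immediate early nuclear receptor gene Nr4a3 (0.816).

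Genes that act upstream of the family were set beside the 4.81% of all genes called in the average over strata, and 1 call in a list this short is no result about the list. Of 8 genes for SRF and its partners, none rose and 1 fell in the average over strata, with a list median log2 fold change of -0.05. The gene that fell was Mkl2, a coactivator of SRF, at 43.3 ± 4.79 CPM after noise and 47.9 ± 3.18 CPM after sham exposure (SD, n = 12 each, log2 fold change -0.15, adjusted p = 0.0163). None of 12 genes of the ERK cascade, from Hras to Creb1, was called by edgeR, DESeq2 or limma voom, none had an unadjusted p under 0.05, and the median was 0.02. These are transcript levels, and the activity of the ERK cascade and of SRF was not measured.

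Downstream, 2 of 14 reported Egr target genes rose, none fell, and the list median was 0.07, beside 2.40% of all genes called higher and a median of 0 for all genes. Arc, a neuronal immediate early gene whose product acts at synapses, had 8.74 ± 2.46 CPM after noise and 4.48 ± 1.10 CPM after sham exposure (SD, n = 12 each, log2 fold change 0.96, adjusted p = 4.34e-05). Ptges, a prostaglandin E synthase, had 20.6 ± 2.22 CPM after noise and 17.1 ± 2.24 CPM after sham exposure (SD, n = 12 each, log2 fold change 0.28, adjusted p = 0.00419). The 12 that did not pass included Icam1 (0.18, adjusted p = 0.0699), Vegfa (0.08, adjusted p = 0.312), Tgfb1 (0.07, adjusted p = 0.448) and Pdgfa (0.00, adjusted p = 0.994). By stratum the list had 0 calls in night ADX, 1 in night sham-operated, 2 in day ADX and 0 in day sham-operated mice, where 0.434%, 0.668%, 2.01% and 0.211% of all genes were called higher. The night call was Arc, and it was lost without night sham exposure sham-operated a. The day ADX count was 0 with no filter on low counts or with only the groups compared, 1 without the 3 libraries with pituitary or cerebellar transcripts, and 0 or 1 with any 1 of its 6 libraries left out.

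In the average over strata, none of 9 Egr2-dependent myelin genes was called by edgeR, DESeq2 or limma voom, 1 had an unadjusted p under 0.05, and the list median was 0.04. By stratum edgeR called none, and the medians were 0.11 in night ADX, 0.06 in night sham-operated, -0.25 in day ADX and 0.22 in day sham-operated mice. In day ADX mice 1 of 9 log2 fold changes was above 0, against 8 of 9 in day sham-operated mice. Of all genes, 47.5% were above 0 in each of these strata. Whether the list differs between them was not tested. DESeq2 called 1 and limma voom 2 of the 9 in day ADX mice, among 1300 and 1481 genes called in all. Mbp, which encodes myelin basic protein, had 1080 CPM both after noise and after sham exposure (averaged log2 fold change 0.01, adjusted p = 0.985). Its log2 fold change in day ADX mice was -0.40 (adjusted p = 0.3). Among 11 NuRD genes, the complex that Nab proteins recruit, 1 rose in the average over strata, with a median of 0.04. This was the histone-binding subunit Rbbp7, at 158 ± 8.21 CPM after noise and 149 ± 5.28 CPM after sham exposure (SD, n = 12 each, log2 fold change 0.08, adjusted p = 0.0400), and its call was lost without the 3 libraries with pituitary or cerebellar transcripts and in 17 of 24 leave-one-out fits.

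**Figure D5:**
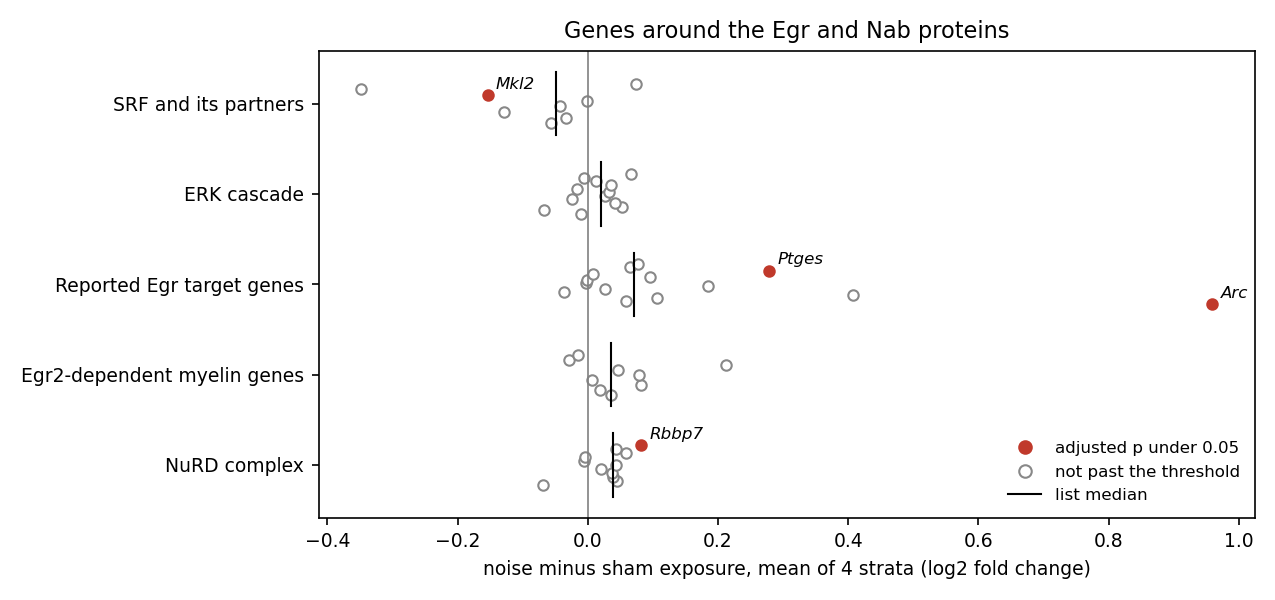
Log2 fold change, noise minus sham exposure, averaged over the 4 strata (horizontal axis) for the genes of 5 lists, with filled points for an adjusted p under 0.05 and a bar at each list's median. The medians lie between -0.05 and 0.07, and the filled points are Mkl2 on the left and Rbbp7, Ptges and Arc on the right.

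Markers of some cell types moved with noise beside these genes, and their part in the values above was not tested. Of 7 macrophage markers 2 rose, Aif1 and C1qb, with a summed level of 402 to 628 CPM in noise libraries and 423 to 527 CPM in sham exposure libraries. Of 6 supporting cell markers 2 fell, the gap junction genes Gjb2 and Gjb6, with a sum of 877 to 1420 CPM in noise libraries and 1170 to 1460 CPM in sham exposure libraries. These calls are from the average over strata, where 4.81% of all genes were called. By stratum, macrophage markers were called in day ADX mice alone, where 3 of 7 rose (Aif1, C1qa and C1qb), all 7 log2 fold changes were above 0 with a median of 0.31, and 2.01% of all genes were called higher. The 7 neutrophil and myeloid marrow markers there also all had log2 fold changes above 0, with a median of 0.33. Those of the 8 skeletal muscle markers were all below 0, with a median of -2.52, and no marker of these 2 lists was called. In the same stratum none of the 6 supporting cell markers was called, and all 6 log2 fold changes were below 0, with a median of -0.34 and a lowest value of -1.17 for Tecta. In each of the endothelial and the stria and spiral ligament lists, 1 of 6 markers fell in the average, Cldn5 and Pou3f4. No marker of hair cells, spiral ganglion neurons, neutrophils or lymphoid cells was called there, and no marker in any list was at 0 in all libraries. In night ADX mice, with night noise ADX a included, 2 of 4 tested pituitary markers were called higher, as were 0.434% of all genes.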

How the data were processed

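Raw read counts per gene symbol were deposited by the authors as 1 table for all 24 libraries. Per the labels' protocols, stranded libraries were made from 300 ng of total RNA and sequenced as single reads of 50 bases, in pools of 6 that are not named per library. Per the submitters' processing notes, TopHat2 2.0.11, HTSeq 0.6p1 and the build mm10 were used; the gene annotation and the strand setting are not given in the sources used here.

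Counts were analysed with edgeR 4.0.16 in R 4.3.3, with filterByExpr on the 8 groups, TMM scaling (factors 0.974 to 1.02), 1 coefficient per group over all 24 libraries, robust quasi-likelihood F-tests of 21 contrasts, and Benjamini-Hochberg adjustment over 16607 genes with a threshold of 0.05. Values averaged over strata are the mean of the 4 noise contrasts. Log2 CPM used a prior count of 2. The tests were checked on simulated data. Exon lengths came from GENCODE vM21, which matched 21751 entries by symbol. No library repeated another in its group (chi-square per gene of 6.10 to 41.4). Alternatives were RLE factors, DESeq2 1.42.0, limma 3.58.1 voom, no filter, only the groups compared, a replicate block, and leaving out libraries. The genes named are all 6 members, up to 5 called genes per pathway list by adjusted p in the averaged noise effect, and the 5 genes most like each member. Genes in the lists without a call (Icam1, Vegfa, Tgfb1, Pdgfa, Mbp) were picked after their values were seen, as were the called cell type markers. Of the genes first listed around the members, 2 are not reported here and enter no list count. The members and lists were chosen with earlier results of these data known.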

Additional observations from a re-analysis of the deposited data

How the results depend on the processing

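Nab2 was called in all 4 strata and in the average over strata under every alternative run, including each library left out. Over 170 member log2 fold changes recomputed under settings that leave out no single library, 161 kept their direction and side of the threshold, 2 gained a call and 7 lost one. In night ADX mice the number of members called was 1 in place of 2 with no filter, with limma voom, with only the groups compared and without the 3 libraries with pituitary or cerebellar transcripts, since Egr1 had adjusted p of 0.0593, 0.0582, 0.384 and 0.155 there, at log2 fold changes of 1.55, 1.36, 1.55 and 1.39 beside 1.55. In day sham-operated mice it was 1 in place of 2 without those 3 libraries (Egr2, adjusted p = 0.0783). Egr3 in day ADX mice had an adjusted p of 0.0697 with only the groups compared, and DESeq2 added Egr2 in night ADX mice (0.0318). Over the 16 time, surgery and interaction comparisons, DESeq2 and limma voom each gave 1 member call in place of 0.

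With 1 library left out, the number of members called ran from 1 to 2 in night ADX, from 2 to 2 in night sham-operated, from 2 to 3 in day ADX and from 1 to 2 in day sham-operated mice, from 4 to 5 in the average over strata, and from 0 to 2 over the 16 other comparisons. The log2 fold change of Egr2 in night sham-operated mice ran from -0.026 (night sham exposure sham-operated a left out) to 0.202. The change in the log2 ratio of Egr2 to Egr3 ran from -0.071 to 0.092 and was below 0 without day noise ADX a, day noise sham-operated a or day sham exposure sham-operated c. The cause of these changes was not tested.

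Genome-wide counts moved more: DESeq2 called 182, 210, 1300 and 123 genes in night ADX, night sham-operated, day ADX and day sham-operated mice, where edgeR called 83, 119, 667 and 41, and limma voom called 255 in night sham-operated and 1481 in day ADX mice. With only the groups compared, 44 were called in night ADX and 410 in day ADX mice, and 44 in night ADX mice without the 3 libraries. Leave-one-out counts ran from 37 to 134, 78 to 118, 144 to 2254 and 23 to 55 in the same order of strata. The libraries of a group carry the letters a, b and c. Residuals of libraries with the same letter were compared across groups (median r of -0.002, 0.022 and 0.01 over 28 pairs each). Single values ran from -0.344 to 0.512 for a, from -0.224 to 0.226 for b and from -0.295 to 0.346 for c. Over 168 pairs with different letters they ran from -0.443 to 0.333. These values do not settle whether the letters pair libraries, and the main fit did not use the letters. The replicate block left 2, 2, 3 and 2 members called in these strata and 5 in the average, and lowered the calls among the reported Egr target genes in day ADX mice to 0 in place of 2. Egr4, with at most 11 counts in a library, is limited by depth.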
